A study of Sus scrofa with 24 samples.

Results

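The genes described here are those of the cytosolic ribosomal proteins, taken as every gene whose symbol in the annotation of the array was RPL or RPS followed by a digit, RPLP followed by a digit, or RPSA, with the S6 kinases (RPS6K symbols) left out. The rule found 44 of the 10912 genes measured, and it used no measured value. Among them 23 stood for the large subunit, which counts the 3 stalk proteins RPLP0, RPLP1 and RPLP2 and the paralogs RPL26L1 and RPL36AL, and 19 for the small subunit. RPL7L1 and RPS19BP1 carry such a symbol but are no subunits of the finished ribosome. RPL7L1 is a nucleolar relative of RPL7 found on precursors of the large subunit, and RPS19BP1 binds RPS19 and regulates the deacetylase SIRT1, both as described in human cells.

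Ribosomal proteins are built around the ribosomal RNAs in the nucleolus and exported as a small and a large subunit, which join on a messenger RNA to make protein. Each subunit needs 1 copy of nearly every protein, and their messenger RNAs share a terminal oligopyrimidine (TOP) start that lets the kinase mTORC1 and the binding protein LARP1 set their translation as a block. The oxyntic mucosa, the acid-making part of the stomach, holds parietal cells and the chief cells, whose secretion of pepsinogen rests on abundant ribosomes. These roles come mainly from work in yeast, mouse and human cells.

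The samples were oxyntic mucosa from 24 piglets of a (Great York x Pietrain) x 'Dalland' cross, artificially fed and 3 weeks of age, with 1 Affymetrix gene array per piglet. All were delivered by caesarean section, received pasteurized sow colostrum and were given the same starter of 3 bacterial strains. They fell into 4 groups of 6: the complex association (CA), which then received diluted faeces of an adult sow, or the simple association (SA), which received a placebo, each on a control diet (CON) or on a diet with medium chain triglycerides (MCT), in which coconut oil took the place of soy and palm oil. The labels put the associations in separate rooms, in which case room and microbiota cannot be told apart, whereas the methods describe 3 piglets of each group in a pen or room. Pen, litter and sex were not named for a piglet in the labels used here, and the methods call litter and gender balanced over the groups.

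Markers of the tissue were bright on these arrays. The proton pump genes ATP4A and ATP4B of the parietal cell had mean log2 intensities of 11.80 and 11.38 over the 24 piglets, above 99.9% and 99.8% of all transcript clusters, and the pepsinogen genes PGC and PGA5 of the chief cell had 11.18 and 12.04. Smooth muscle genes were bright too, with ACTA2 at 10.76. Of the 24 arrays, 3 stood apart from the rest over all clusters. The median correlation with the other arrays was 0.946 for CA CON 4, 0.975 for CA MCT 10 and 0.981 for SA MCT 22, against 0.987 to 0.992 for the other 21, where the number is that of the piglet.

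Mean log2 intensity of the 44 genes ran from 2.74 for RPS6 to 11.45 for RPS10. As probe sets differ in how well they bind, these readings were not used to order the genes by their amount of RNA. Most of the ribosomal protein genes were bright: 31 had a mean over 7, and 30 of these were subunits. RPS6 (2.74), RPS15A (2.80), RPS24 (4.18) and RPS29 (4.35) had a mean under 5, within the dimmer part of all clusters, and a difference in these 4 genes rests on weak signals.

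Among the genes of the large subunit, RPL4 and RPL8 differed least from piglet to piglet. RPL4, which lines the exit tunnel for the new protein, had a lowest, median and highest log2 value of 10.90, 11.00 and 11.11 in CA CON, 10.94, 11.01 and 11.07 in CA MCT, 10.94, 11.07 and 11.14 in SA CON, and 10.93, 11.02 and 11.08 in SA MCT. Its standard deviation (SD) between piglets within groups was 0.065, and all 4 groups overlapped. RPL8, next to the peptidyl transferase centre, had 10.89, 10.99 and 11.04 in CA CON, 10.92, 11.00 and 11.10 in CA MCT, 10.84, 11.03 and 11.07 in SA CON, and 10.86, 10.95 and 11.05 in SA MCT, with an SD of 0.076. These genes and RPS10 of the small subunit (SD 0.065) had the lowest spread of the 44.

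The stalk of the large subunit, which recruits the elongation factors, gave a mixed picture. RPLP0, its base, was steady, with medians of 10.77 in CA CON, 10.70 in CA MCT, 10.70 in SA CON and 10.67 in SA MCT, an SD of 0.094 and overlapping groups. RPLP1 varied more. It had a lowest, median and highest value of 7.37, 7.68 and 8.02 in CA CON, 7.44, 7.73 and 7.90 in CA MCT, 7.30, 7.48 and 8.22 in SA CON, and 7.07, 7.47 and 7.68 in SA MCT. Its medians were higher in both CA groups than in both SA groups, yet the highest value of all belonged to SA CON 16. RPLP2, its partner on the stalk, had medians of 9.98, 9.89, 9.98 and 9.88 in the same order of groups.

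The gene with the widest spread was RPL10, which joins the large subunit last, in the cytoplasm. It had a lowest, median and highest value of 8.11, 8.57 and 8.86 in CA CON, 7.68, 8.76 and 8.87 in CA MCT, 8.02, 8.15 and 8.68 in SA CON, and 7.37, 8.42 and 9.32 in SA MCT, with an SD of 0.447. The lowest readings were those of SA MCT 22 and CA MCT 10 and the highest that of SA MCT 19, so the extremes lay within the MCT groups and not between groups. RPL10 also ran against the other ribosomal protein genes. Over the 24 piglets, with group means subtracted, its median Pearson r with them was -0.22, the lowest of the 44. RPL36AL (SD 0.309) and RPL13A (SD 0.307) also spread widely, though less than RPL10, but went with the rest, with median r of 0.38 and 0.31.

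In the small subunit RPS10, on its head near the entry of the messenger RNA, had group medians of 11.45, 11.43, 11.47 and 11.44 in CA CON, CA MCT, SA CON and SA MCT. RPS3, at the same entry, had 11.16, 11.16, 11.15 and 11.15. Both genes thus read nearly alike in the 4 groups. RPS6, the substrate of the S6 kinases, had the second widest spread of the 44 (SD 0.417). Its lowest, median and highest values were 2.36, 2.80 and 3.01 in CA CON, 2.23, 2.67 and 4.22 in CA MCT, 2.59, 2.68 and 2.89 in SA CON, and 2.24, 2.66 and 3.18 in SA MCT. The value of 4.22 belonged to CA MCT 10, and none of the other 23 piglets exceeded 3.18.

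**Figure D1:**
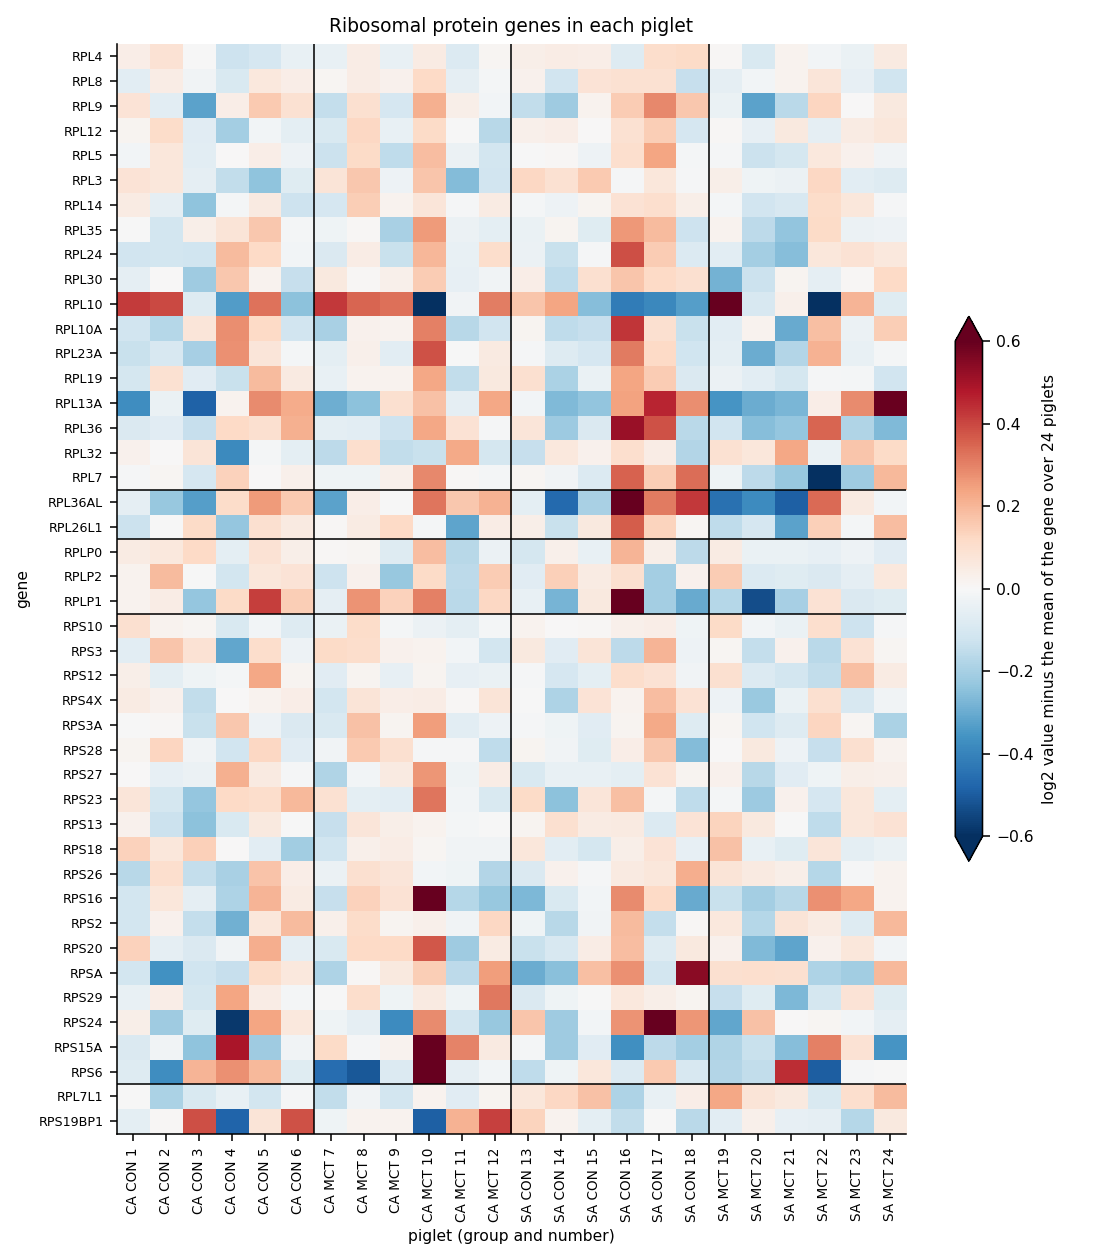
Log2 value of each of the 44 genes (rows) in each of the 24 piglets (columns) minus the mean of that gene over all piglets, in log2 units; values past the ends of the colour scale take its end colour. Horizontal lines part large subunit, paralogs, stalk, small subunit and genes that are no subunits; vertical lines part the 4 groups, and CA MCT 10, SA CON 16 and SA CON 17 had the highest means over the 44 genes, with 37, 35 and 33 genes above their own mean, and CA CON 5 and CA MCT 8 had 35 each.

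Spread followed brightness. Among genes with a mean log2 over 9, the median SD within groups was 0.099 for the 18 ribosomal protein genes and 0.125 for all 526 genes of that brightness. Between 7 and 9 it was 0.148 for 13 and 0.157 for 2201, between 5 and 7 it was 0.184 for 9 and 0.212 for 3100, and under 5 it was 0.274 for 4 and 0.216 for 5085. In the 3 brighter ranges the ribosomal protein genes thus varied slightly less than other genes of like brightness, and in the dimmest range, which held 4 of them, more. This is a description of these arrays and was not tested.

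Ribosomal protein genes varied together only loosely. Each correlation was taken across the 24 piglets after the group means of each gene were subtracted. Over the 946 pairs of the 44 genes the median Pearson r was 0.195 (Spearman 0.19), and 72.2% of the pairs were positive. Among the 30 subunits with a mean over 7 it was 0.23 (Spearman 0.247), with 77.0% positive. These correlations share the arrays and their normalization, while differences between group means were removed. RPL19 and RPL24 of the large subunit and RPS16 of the small subunit were most like the others, each with a median r of 0.40. RPS19BP1 (-0.18) and RPL7L1 (-0.10), which are no subunits, and RPL32 (-0.04) joined RPL10 below 0, while the other 40 genes had a median r above 0.

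Taken per piglet, the mean over the 44 genes of each value minus its gene's mean over all piglets differed far more within groups than between them. It was -0.077, -0.015 and 0.087 (lowest, median and highest) in CA CON, -0.066, 0.003 and 0.176 in CA MCT, -0.076, -0.011 and 0.130 in SA CON, and -0.111, -0.016 and 0.019 in SA MCT. Each group thus held piglets on both sides of 0, and all groups overlapped. Means ± SD were -0.006 ± 0.055, 0.020 ± 0.086, 0.019 ± 0.077 and -0.033 ± 0.053 (n = 6 each).

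The piglets at the ends were CA MCT 10 (0.176), SA CON 16 (0.130) and SA CON 17 (0.094) on the high side and SA MCT 20 (-0.111), SA MCT 21 (-0.084) and CA CON 3 (-0.077) on the low side. The highest value of a gene over all piglets fell to SA CON 16 for 11 of the 44 genes, to CA MCT 10 for 10 and to SA CON 17 for 7, and the lowest fell to CA CON 4 and SA MCT 21 for 7 genes each. In SA CON 16 it was the large subunit that stood out, with a mean of 0.213 against 0.060 for the small subunit. In CA MCT 10 the small subunit mean was the higher, with 0.265 against 0.137. That mean includes the dim genes RPS6 and RPS15A, which read 4.22 and 3.96 in this piglet against 2.74 and 2.80 over all piglets. The small subunit mean without them was not computed. With the 30 brighter subunits alone, large and small together, the mean of CA MCT 10 was 0.123.

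Markers of several cell types were also unlike the rest in CA MCT 10. As the mean over each list of log2 values minus the gene means, its T cell genes (8 of 10 listed were measured) stood at -0.46, its dividing cell genes (4 of 7) at -0.62, its enteroendocrine genes (7 of 7) at -0.59 and its fibroblast genes (7 of 8) at 0.32. In SA CON 16 the chief cell genes (3 of 6) stood at 0.46. In SA CON 17 dividing cell genes stood at -0.62, about as low as in CA MCT 10. Its smooth muscle genes (3 of 7) stood at 0.30, within the range of the other piglets (0.78 in SA CON 14). Of the measured T cell genes 6 of 8 had a mean log2 under 5, a weak signal, as had 1 of the 7 enteroendocrine genes. The part of these markers in the level of the ribosomal protein genes was not tested. In bulk tissue, fewer cells of a type and less RNA per cell cannot be told apart.

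**Figure D2:**
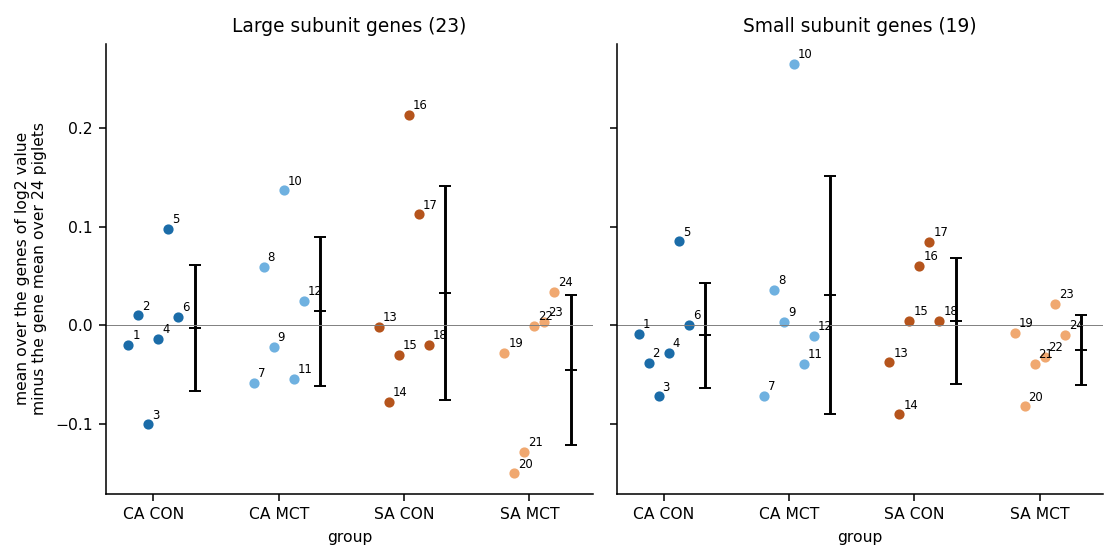
Mean over the large subunit genes (left, 23) and the small subunit genes (right, 19) of log2 value minus gene mean, 1 point per piglet with its number, by group; bars give the group mean ± SD (n = 6). CA MCT 10 is the highest point for the small subunit (0.265) and SA CON 16 for the large subunit (0.213), and the 4 groups overlap in both panels. The small subunit mean of CA MCT 10 includes high readings of the dim genes RPS6 and RPS15A.

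The first question was whether the more complex microbiota altered these genes. Over both diets none of the 44 passed an adjusted p under 0.05 in limma, with a background of 0.0% of the 10912 genes, and the lowest adjusted p of a ribosomal protein gene was 0.944. Of the 44 genes 28 lay higher and 16 lower in CA as compared to SA, with a median log2 difference of 0.013 beside -0.001 over all genes, of which 49.5% lay higher. Without CA MCT 10 the median was -0.006. Large subunit genes had a median of 0.005 (13 of 23 higher) and small subunit genes 0.021 (14 of 19 higher). The 95% confidence interval of the difference stayed within 1.2-fold either way for 36 of the 44 genes and within 1.5-fold for all 44.

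At an unadjusted p under 0.05 there was 1 gene higher, beside 1.77% of all genes, and 1 lower, beside 2.36%. The lower one was RPL7L1, with a lowest, median and highest log2 value of 8.59, 8.71 and 8.78 in CA CON, 8.64, 8.74 and 8.80 in CA MCT, 8.60, 8.84 and 8.96 in SA CON, and 8.69, 8.87 and 9.01 in SA MCT. Medians were lower in both CA groups, but SA CON 16 (8.60), SA MCT 22 (8.69) and SA CON 17 (8.74) lay among the CA piglets, and the other 9 SA piglets lay above all of them. The difference was -0.13 ± 0.05 (limma SE, n = 12 against 12, unadjusted p = 0.0169, adjusted p = 0.944).

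The higher one was RPS15A, a small subunit protein with a dim reading. Its values were 2.55, 2.74 and 3.28 in CA CON, 2.79, 2.88 and 3.96 in CA MCT, 2.43, 2.62 and 2.79 in SA CON, and 2.44, 2.64 and 3.10 in SA MCT. The highest readings were those of CA MCT 10 and CA CON 4, arrays that stood apart, and the groups overlapped. The difference was 0.26 ± 0.11 (unadjusted p = 0.0311, adjusted p = 0.944 in limma), and 0.17 without CA MCT 10. RPLP1 of the stalk (0.19 ± 0.10) and RPS29 (0.10 ± 0.05) came next on the high side, and RPS24 (-0.17 ± 0.10) and RPL32 (-0.09 ± 0.06) on the low side, each with an adjusted p of 0.944 in limma.

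On the CON diet alone, 15 of the 44 genes lay higher and 29 lower in CA than in SA, with a median of -0.024 beside -0.0003 over all genes. With the dimmest clusters left out, the median was -0.029 for the 42 ribosomal protein genes kept and -0.028 over all 7252 genes kept. Of these 7252 genes 39.0% lay higher, so by the median the downward tilt was shared by brighter genes in general. Of the large subunit genes 4 of 23 lay higher (median -0.050) and of the small subunit genes 10 of 19 (median 0.019), and the subunits were not tested against each other. None passed (background 0.0%, lowest adjusted p 0.943 in limma), and 30 of the 44 intervals stayed within 1.2-fold. The median of the 44 genes was 0.010 without SA CON 16, so its sign rested on that piglet. No gene had 6 values all on 1 side of those of the other group, which 0.156% of all genes had.

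On this diet no gene lay higher at an unadjusted p under 0.05 (1.93% of all genes) and 1 lay lower (2.34% of all genes), RPS24 of the small subunit, mutated in some patients with Diamond-Blackfan anaemia. It had values of 3.60, 4.16 and 4.42 in CA CON and 3.97, 4.40 and 4.93 in SA CON, which overlapped, and the difference was -0.29 ± 0.14 (unadjusted p = 0.0483, adjusted p = 0.943 in limma). Its ends were CA CON 4 (3.60) and SA CON 17 (4.93), and the difference was -0.18 without SA CON 17. RPL3, at the peptidyl transferase centre, had 9.70, 9.88 and 10.02 in CA CON against 9.93, 10.02 and 10.10 in SA CON, a difference of -0.13 ± 0.08. RPS13 differed by -0.10 ± 0.07. At the other end stood RPL10 (0.25 ± 0.24), RPS15A (0.15 ± 0.16) and RPLP0 (0.06 ± 0.07).

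On the MCT diet the tilt was the other way. Here 32 of the 44 genes lay higher and 12 lower in CA than in SA, with a median of 0.044 beside -0.005 over all genes, and both subunits took part (18 of 23 large subunit genes, median 0.046, and 13 of 19 small subunit genes, median 0.043). None passed (background 0.0%, lowest adjusted p 0.9998 in limma), and 26 of the 44 intervals stayed within 1.2-fold. Without CA MCT 10 the median was 0.018, with 24 genes higher and 20 lower. No gene had groups that did not overlap (0.192% of all genes).

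At an unadjusted p under 0.05, 3 genes lay higher (1.29% of all genes) and 1 lower (1.36% of all genes) on this diet. RPL7, a large subunit protein, had 5.23, 5.26 and 5.55 in CA MCT and 4.60, 5.07 and 5.45 in SA MCT, a difference of 0.23 ± 0.11 (unadjusted p = 0.0428), and 0.13 without SA MCT 22. RPS15A differed by 0.36 ± 0.16, and by 0.18 without CA MCT 10. RPS29, with 4.33, 4.38 and 4.67 in CA MCT and 4.09, 4.26 and 4.43 in SA MCT, differed by 0.17 ± 0.07. RPL7L1 was the lower one (-0.15 ± 0.07). All 4 had an adjusted p of 0.9998 in limma. RPL32 (-0.14 ± 0.08) and RPS13 (-0.03 ± 0.07) followed on the low side.

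**Figure D3:**
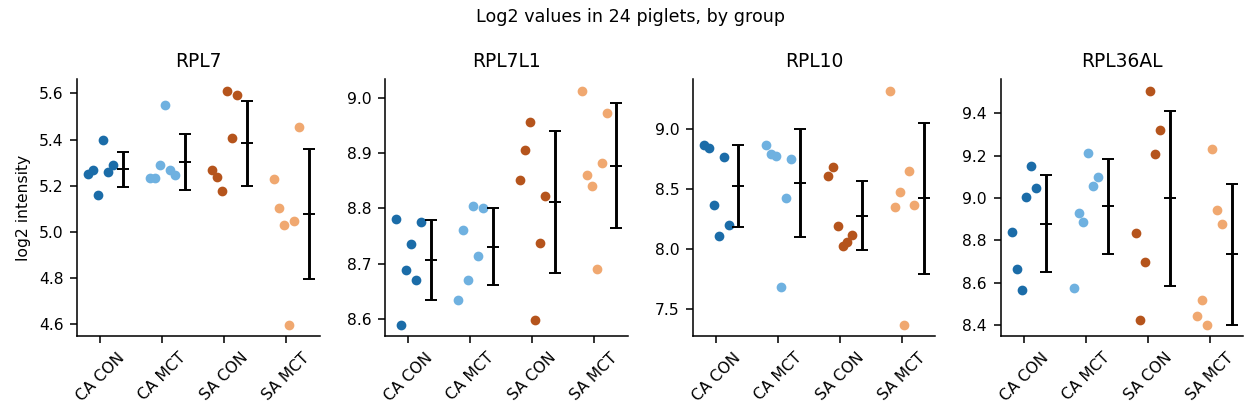
Log2 intensity of RPL7, RPL7L1, RPL10 and RPL36AL in each piglet by group, with the group mean ± SD (n = 6) beside the points; each panel has its own axis, which does not start at 0. RPL7 is lowest in SA MCT 22 (4.60), RPL7L1 has its medians at 8.71 and 8.74 in CA and 8.84 and 8.87 in SA, and the groups overlap for all 4 genes.

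The second question was that of the diet. Over both associations 12 of the 44 genes lay higher and 32 lower on MCT as compared to CON, with a median of -0.016 beside 0.002 over all genes, of which 51.1% lay higher. None passed (background 0.0%, lowest adjusted p 0.9999 in limma). At an unadjusted p under 0.05 there was no gene higher (1.37% of all genes) and none lower (0.962% of all genes), and 37 of the 44 intervals stayed within 1.2-fold and all 44 within 1.5-fold. RPL7 (-0.14 ± 0.07), RPL36 (-0.11 ± 0.09) and RPS24 (-0.12 ± 0.10) lay lowest by moderated t, and RPS15A (0.19 ± 0.11), RPS2 (0.07 ± 0.06) and RPL32 (0.07 ± 0.06) highest.

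In CA piglets 33 of the 44 genes lay higher on MCT, with a median of 0.023 beside 0.002 over all genes. They comprised 16 of 23 large subunit genes (median 0.022) and 16 of 19 small subunit genes (median 0.032). None passed (background 0.0%, lowest adjusted p 0.999 in limma), none had an unadjusted p under 0.05 in either direction (1.66% of all genes higher, 1.35% lower), and none had groups that did not overlap (0.0733% of all genes). Without CA MCT 10 the median was 0.003, without CA CON 4, CA MCT 10 and SA MCT 22 it was -0.016 (17 genes higher, 27 lower), and with array weights it was -0.002. RPS15A (0.29 ± 0.16), RPL14 (0.09 ± 0.06) and RPS2 (0.09 ± 0.08) had the highest moderated t. Their differences were 0.11 without CA MCT 10, 0.05 without CA CON 3 and 0.04 without CA CON 4. The lowest were both RPLP2 (-0.08 ± 0.08) and RPLP0 (-0.06 ± 0.07) of the stalk, next to RPS12 (-0.06 ± 0.07).

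In SA piglets the tilt was the most one-sided of the comparisons between groups. There 8 of the 44 genes lay higher and 36 lower on MCT, with a median of -0.042 beside 0.006 over all genes, of which 52.5% lay higher. Large subunit genes had a median of -0.079 (2 of 23 higher) and small subunit genes -0.041 (5 of 19 higher). None passed (background 0.0%, lowest adjusted p 0.9997 in limma), 25 of the 44 intervals stayed within 1.2-fold, and 42 within 1.5-fold. No gene had groups that did not overlap (0.119% of all genes). Without SA CON 16 the median was -0.028. This comparison shares the SA CON piglets with that of the associations on the CON diet.

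No gene lay higher on MCT in SA piglets at an unadjusted p under 0.05 (1.21% of all genes) and 1 lay lower (0.825% of all genes). It was RPL7, with 5.18, 5.34 and 5.61 in SA CON and 4.60, 5.07 and 5.45 in SA MCT. The difference was -0.31 ± 0.11 (95% interval -0.52 to -0.09, unadjusted p = 0.00795, adjusted p = 0.9997 in limma), the lowest unadjusted p of the 44 genes in all 7 comparisons. Of the SA MCT piglets 4 lay below the SA CON range, but SA MCT 24 (5.45) and SA MCT 19 (5.23) lay within it. It was -0.21 without SA MCT 22 and -0.12 with the mean of both clusters of RPL7, of which the dimmer had a mean log2 of 2.19. RPL36, of which SA CON held 6.69, 6.90 and 7.43 and SA MCT 6.64, 6.70 and 7.25, differed by -0.20 ± 0.12, and by -0.11 without SA CON 16. RPS24 differed by -0.24 ± 0.14, and by -0.13 without SA CON 17. RPL32 (0.12 ± 0.08), RPL7L1 (0.06 ± 0.07) and RPS2 (0.05 ± 0.08) lay at the other end.

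**Figure D4:**
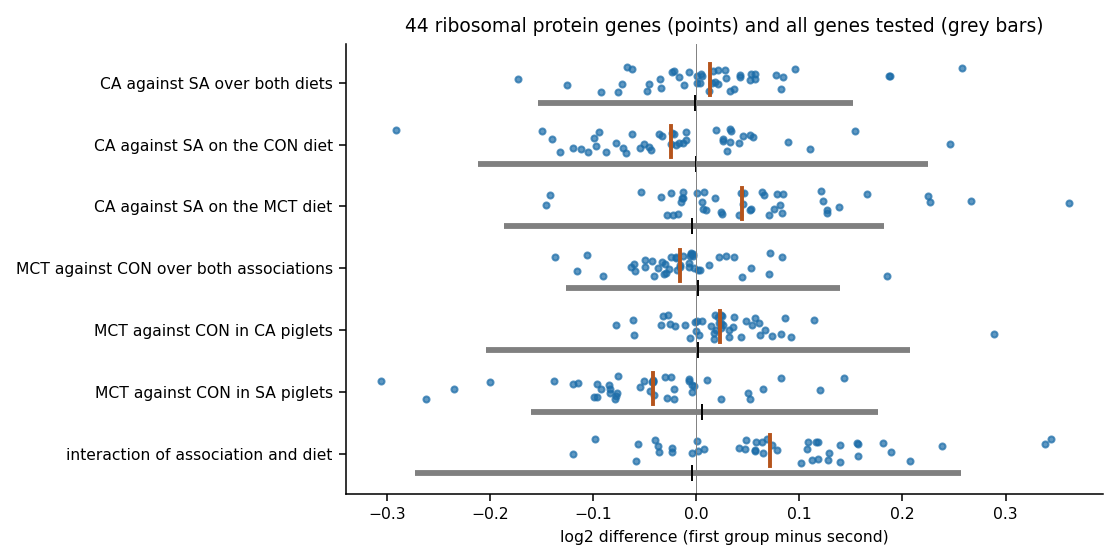
Log2 difference of each of the 44 genes (blue points, spread vertically at random) in the 7 comparisons, first group minus second, with their median (orange line); the grey bars run from the 5th to the 95th percentile of all genes tested and the black ticks mark their median. The medians of the 44 genes run from -0.042 (MCT against CON in SA piglets) to 0.071 (interaction), and most points lie within the grey bars.

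With all piglets and equal weights the tilt by diet went opposite ways in CA and SA piglets, and the interaction was tested, that is, how far the gap of CA over SA on MCT exceeded the gap on CON. It was above 0 for 34 of the 44 genes, with a median of 0.071 beside -0.004 over all genes, of which 49.0% lay above 0. The lowest median of the 44 genes under another setting was 0.035. Large subunit genes had a median of 0.117 (18 of 23 above 0) and small subunit genes 0.065 (16 of 19 above 0). None passed (background 0.0%, lowest adjusted p 0.9999 in limma). At an unadjusted p under 0.05 there was 1 gene above 0 (1.27% of all genes) and none below (1.26% of all genes). The precision was lower here, as 12 of the 44 intervals stayed within 1.2-fold and 37 within 1.5-fold.

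The 1 gene was RPL7, with an interaction of 0.34 ± 0.15 (unadjusted p = 0.0333, adjusted p = 0.9999 in limma). With the mean of both clusters of RPL7 it was -0.0025, but the other cluster was dim (mean log2 2.19) and had a Pearson r of 0.018 with the brightest. RPL36AL followed with 0.34 ± 0.24 and RPL30, a large subunit protein, with 0.18 ± 0.11. RPL36AL showed the cross-over in its medians, 8.92 in CA CON, 8.99 in CA MCT, 9.02 in SA CON and 8.70 in SA MCT, but its SD within groups of 0.309 was about as wide as the gap between the SA groups. RPL30 had medians of 8.84, 8.89, 8.97 and 8.85 in the same order. RPL32 (-0.10 ± 0.12), RPS12 (-0.06 ± 0.10) and RPLP2 (-0.06 ± 0.11) had the lowest moderated t.

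Paralogs and genes that are no subunits did not behave as 1 group. RPL26L1, a close copy of the large subunit protein RPL26, had group medians of 5.71, 5.71, 5.73 and 5.63 in CA CON, CA MCT, SA CON and SA MCT and no unadjusted p under 0.05. RPS19BP1 had medians of 5.65, 5.63, 5.58 and 5.56 and an SD of 0.230. Its lowest values belonged to CA MCT 10 (5.12) and CA CON 4 (5.13), and its spread was wide in CA CON and CA MCT (SD 0.32 and 0.30) and narrow in SA CON and SA MCT (0.11 and 0.08), a contrast that was not tested. RPL7 and its relative RPL7L1 went opposite ways between the associations on the MCT diet, with differences of 0.23 and -0.15, neither of which passed. RPL36AL is close in sequence to RPL36A, so that its reading is uncertain.

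Several genes were covered by more than 1 transcript cluster, and the brightest stood for the gene. This was so for 17 of the 44, and in 4 of them (RPL10, RPL13A, RPL7L1 and RPL8) the brightest had a copy with identical values. For others, the clusters did not go together over the 24 piglets. Those of RPS26, at the exit of the messenger RNA, with means of 7.92 and 3.77, had a Pearson r of -0.55, those of RPS13 reached -0.24 (8.81 and 3.52), and those of RPL4 -0.06 (11.02 and 2.34). In each of these cases the other cluster had a mean under 4. Low likeness was not confined to dim clusters. Among other clusters with a mean over 5, identical copies apart, those of RPL13A (5.502), RPL23A (6.746) and RPS3 (7.339) had a Pearson r of -0.007, 0.121 and 0.177 with the brightest. Those of RPS20 (5.045), RPL4 (7.152) and RPS3A (6.867) had 0.326, 0.333 and 0.518. The reading of such genes thus rests in part on the cluster chosen.

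The machinery that makes and serves ribosomes was read from lists of genes beside the 44. Elongation factors and other genes with TOP messenger RNAs (12 measured of 17 listed) had medians close to those of the ribosomal protein genes in all 7 comparisons: 0.014 for CA against SA over both diets, -0.018 on CON, 0.036 on MCT, -0.013 for MCT against CON over both associations, 0.021 in CA, -0.056 in SA and 0.063 for the interaction. None of the 12 passed in any of them, and the likeness of the lists was not tested. HNRNPA1, an RNA-binding protein with such a messenger RNA, had 0.15 ± 0.06 for CA against SA on MCT (unadjusted p = 0.0302, adjusted p = 0.9998 in limma). In the interaction HNRNPA1 had 0.22 ± 0.09 (unadjusted p = 0.0209, adjusted p = 0.9999 in limma). Of the 12 genes 2, TPT1 and PABPC4, had a mean log2 under 5, a weak signal.

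Genes of ribosome biogenesis build and modify the ribosomal RNA and assemble it. Their median had the other sign from that of the ribosomal protein genes in some comparisons and the same sign in others. Of the 38 measured of 60 listed, 37 lay lower in CA than in SA over both diets, with a median of -0.105, where that of the ribosomal protein genes was 0.013. On the CON diet all 38 lay lower (median -0.179), 16 of them at an unadjusted p under 0.05 (2.34% of all genes lay lower so), among them WDR75 (-0.31 ± 0.08) and PUS7 (-0.42 ± 0.12), and on the MCT diet 23 did (median -0.020). None passed in limma. In CA CON 4, an array that stood apart, the biogenesis genes averaged -0.45 and the 44 ribosomal protein genes -0.031. Without that piglet 36 of the 38 lay lower over both diets (median -0.082) and 36 on the CON diet (median -0.129). On MCT as compared to CON, 33 of the 38 lay higher in CA piglets (median 0.112) and 30 lay lower in SA piglets (median -0.058). In the interaction 32 lay above 0 (median 0.174). The ribosomal protein genes tilted the same way in these comparisons, and CA CON 4 is part of the first and the last. Over both associations the biogenesis median for the diet was 0.011, where that of the ribosomal protein genes was -0.016. Whether these lists differ was not tested.

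A list drawn up as chaperones of single ribosomal proteins had 7 measured of 10 listed. Among these 7, AAR2, ZNF622 and ZPR1 are not established as such chaperones. All 7 genes lay lower in CA than in SA over both diets (median -0.153) and on the CON diet (median -0.218). Without CA CON 4 these medians were -0.075 and -0.061, and 4 of the 7 lay lower on the CON diet. They include GRWD1, which binds RPL3 in its yeast form, with -0.24 ± 0.11 over both diets, and BCCIP, a partner of RPL23, with -0.15 ± 0.07 (adjusted p = 0.944 in limma for both). Initiation factors (17 measured of 36 listed) lay lower in CA for 14 genes, with a median of -0.051, and mitochondrial ribosomal proteins, a separate set encoded by the MRPL and MRPS genes, lay lower for 27 of 37 (median -0.045). EIF2S1, a subunit of the factor that brings the initiator tRNA, had -0.15 ± 0.07, and MRPL35 of the mitochondrial large subunit had -0.12 ± 0.06. Of the 14 measured genes of mTORC1 and of TOP translation 10 lay lower (median -0.039), among them RPS6KB1, the kinase of RPS6 (-0.12 ± 0.05), and MLST8 of mTORC1 (-0.17 ± 0.07). Brighter genes in general also lay mostly lower in CA. With the dimmest clusters left out, 37.4% of 7252 genes lay higher over both diets, with a median of -0.024. Whether any of these lists went beyond that background was not tested. Without CA CON 4 the medians over both diets were -0.041 for initiation factors, -0.026 for mitochondrial ribosomal proteins and -0.027 for genes of mTORC1 and TOP translation. FAU, which encodes the small subunit protein RPS30 under another name, had -0.07, and -0.04 without that piglet. None of these genes passed in any of the 7 comparisons.

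**Figure D5:**
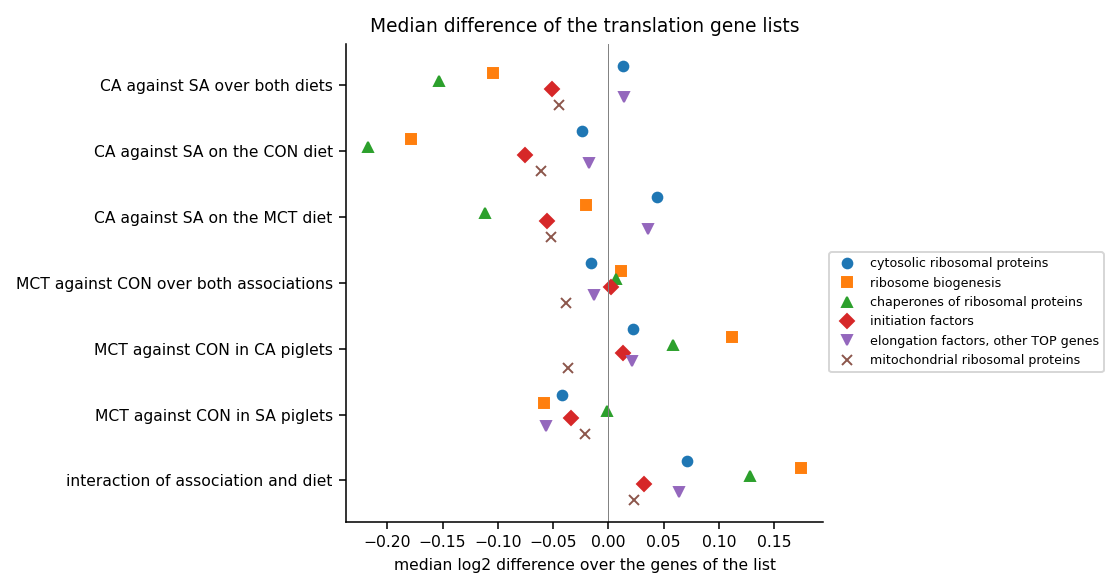
Median log2 difference of the 44 ribosomal protein genes and of 5 lists of translation genes in the 7 comparisons, first group minus second, on a log2 axis. Elongation factors and other TOP genes lie close to the ribosomal protein genes throughout, while ribosome biogenesis genes lie at -0.179 for CA against SA on CON, where the ribosomal protein genes lie at -0.024. In the interaction these medians are 0.174 and 0.071.

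Markers of other cells lay mostly on 1 side in some of these comparisons. All 7 measured fibroblast genes lay higher in CA than in SA over both diets (median 0.135), and the mean over the list ran from -0.072 to 0.102 in CA CON, -0.075 to 0.315 in CA MCT, -0.435 to 0.143 in SA CON and -0.124 to 0.057 in SA MCT. All 8 measured T cell genes lay higher on MCT in SA piglets (median 0.155), where 36 of the 44 ribosomal protein genes lay lower. Of these T cell genes 7 lay lower in CA than in SA on MCT (median -0.162) and 7 below 0 in the interaction (median -0.291), where most ribosomal protein genes lay higher. Their mean ran from -0.053 to 0.202 in CA CON, -0.460 to 0.332 in CA MCT, -0.222 to 0.134 in SA CON and -0.212 to 0.391 in SA MCT. All 4 measured B cell genes lay lower on MCT in CA piglets (median -0.169), with a mean from -0.062 to 0.535 in CA CON, the highest in CA CON 4, and from -0.222 to 0.017 in CA MCT. All 6 measured myeloid genes lay lower in CA than in SA over both diets (median -0.049) and higher on MCT over both associations (median 0.060). All 3 measured smooth muscle genes lay lower in CA than in SA over both diets (median -0.107). Parietal cell genes had a median of 0.002 for CA against SA over both diets and 0.060 for MCT against CON in SA. Of the measured genes 6 of 8 for T cells, 2 of 4 for B cells and 3 of 6 for myeloid cells had a mean log2 under 5, so their differences rest on weak signals. No gene of these lists passed in limma, and the part of these cells in the tilt of the ribosomal protein genes was not tested.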

How the data were processed

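Total RNA of 24 oxyntic mucosa samples was hybridized to Affymetrix Porcine Gene ST arrays. Per the labels and the study's methods the authors summarised the scans by Robust Multichip Analysis, and the deposited values are an intensity on a linear scale (2.35 to 5869), with a median per array of 23.13 to 26.44. The tests were chosen for log2 values, so each intensity was converted to log2 before them. Clusters were named through the platform annotation, in which 11982 of 27558 had 1 symbol. Those with several (373, of which 4 held a ribosomal protein symbol) and those without a symbol there (15203) were not used, and the brightest cluster stood for each gene, which left 10912. The number of arrays limits the precision, as no depth exists.

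A linear model of the 4 groups was fitted over all 24 arrays (limma 3.58.1, R 4.3.3), with 20 residual degrees of freedom, moderated t tests and Benjamini-Hochberg adjustment over 10912 genes. Errors are limma standard errors and intervals are 95%. The scripts were tested on simulated data. The labels number piglets separately, and where piglets shared a pen or a litter the p-values take them as independent. The members, lists and settings were chosen with earlier results of these data known. Named genes were any that passed, the 3 highest and 3 lowest by moderated t in each comparison, the paralogs and genes that are no subunits, the 3 with the highest and lowest spread, the 3 whose clusters agreed least, and list genes with an unadjusted p under 0.05 (at most 4 per comparison); RPL13A, RPL19, RPL24, RPS3, RPS16 and FAU were added after their values were seen. Other settings were the mean of all clusters, the dimmest 40% left out, array weights, a second quantile normalization, an intensity trend, all clusters tested, only the groups compared, and piglets left out; the gene lists without CA CON 4 were added after the data were seen. Protein and promoter sequences were not used here.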

Additional observations from a re-analysis of the deposited data

Results flagged for a closer look

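In 104 groups of 6 values (25 named ribosomal protein genes and their mean over the 44, in 4 groups), 11 had a piglet farther from the other 5 than the Dixon ratio of 0.625 allows. For unselected and independent groups chance alone gives about 1 in 20. Many of these genes were named for extreme values in the same data, and all share the same arrays. The 11 therefore cannot be set against that rate. CA MCT 10 held 3 of them, with RPS6 at 4.215 (others 2.228 to 2.72), RPS15A at 3.958 (others 2.787 to 3.094) and RPL7 at 5.548 (others 5.233 to 5.291). CA CON 4 held RPL32 at 6.076 (others 6.398 to 6.537) and RPS15A at 3.284 (others 2.554 to 2.776), and SA MCT 22 held RPL36 at 7.254 (others 6.639 to 6.793) and RPS26 at 7.744 (others 7.909 to 7.995). These 3 arrays were those that stood apart over all clusters. The other 4 were RPS12 in CA CON 5 at 11.227 (others 10.937 to 11.034), RPL26L1 in CA MCT 11 at 5.369 (others 5.674 to 5.806), RPS10 in CA MCT 8 at 11.561 (others 11.393 to 11.441) and RPLP0 in SA MCT 19 at 10.758 (others 10.643 to 10.678).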

How the results depend on the processing

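No ribosomal protein gene passed under any setting or with any piglet left out; the lowest adjusted p was 0.346, for RPL7L1 in CA against SA over both diets with array weights. Leaving out 1 piglet, the median difference of the 44 genes ran from -0.006 (without CA MCT 10) to 0.029 for CA against SA over both diets, from -0.044 to 0.010 (without SA CON 16) on CON and from 0.018 (without CA MCT 10) to 0.059 on MCT. For MCT against CON it ran from -0.031 (without CA MCT 10) to -0.004 (without SA MCT 20) over both associations, from 0.003 (without CA MCT 10) to 0.044 (without CA CON 5) in CA and from -0.058 to -0.028 in SA, and for the interaction from 0.057 to 0.100. With CA CON 4, CA MCT 10 and SA MCT 22 all left out, the median for MCT against CON in CA turned to -0.016, and with array weights to -0.002; with the mean of all clusters that for CA against SA on CON turned to 0.004. The mean of all clusters also reversed RPS13 (0.0615 on CON, 0.156 on MCT) and the interaction of RPL7 (-0.0025). That setting takes in dim clusters, with mean log2 values of 3.62 and 3.52 for RPS13 and 2.19 for RPL7. Over the other settings the median for the interaction ran from 0.035 to 0.071. A second quantile normalization moved the mean over the 44 genes in CA CON 4 from -0.031 to 0.083. The cause of these shifts was not tested. No paired analysis was possible because the groups share no piglet number.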

Other observations

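Of the clusters that the annotation gives to several symbols, 4 held a ribosomal protein symbol and belonged to no gene above. A pair with identical values, shared by RPL36A and RPL36AL, had mean log2 values of 8.83 ± 0.13 in CA CON, 8.79 ± 0.12 in CA MCT, 8.84 ± 0.27 in SA CON and 8.72 ± 0.14 in SA MCT (SD, n = 6). The cluster of RPL39 and 4 unnamed loci had 8.92 ± 0.18, 8.89 ± 0.21, 8.88 ± 0.23 and 8.73 ± 0.16 in the same order, and that of RPL10 and RPL10L had 3.66 ± 0.11, 3.54 ± 0.13, 3.61 ± 0.14 and 3.65 ± 0.16. All 3 readings differed between groups by less than the spread within them or about as much, and none was tested.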
